A study of Mus musculus with 4 samples.

Results

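The endothelial and mesenchymal lineage miRNAs described here are the deposited rows that come from the hairpins mmu-miR-126a, mmu-miR-126b, mmu-miR-143, mmu-miR-145a, mmu-miR-145b, mmu-miR-199a, mmu-miR-199b and mmu-miR-214, with either arm. They were taken by name, with earlier results of these data known, and 10 of the 389 miRNAs in the table met the rule. Of the 8 hairpin names, 2 had no row (mmu-miR-126b and mmu-miR-145b). MiR-199a-3p and miR-199b-3p are 2 rows with the same sequence and identical values, so the 10 rows hold 9 distinct measurements. Small RNA was sequenced from exosome-enriched preparations of the culture supernatant of C8-D1A, a wild-type mouse astrocyte line, in 2 libraries per group. The control group was kept at 37 °C, for 8 h by the labels but for 2 h by the culture methods, and the heat stress group was held at 42 °C for 2 h and rewarmed at 37 °C for 6 h. All cells grew in medium with fetal bovine serum, and the study's methods do not describe removal of vesicles from that serum. The sequenced material is vesicle RNA of 1 cultured line, and the labels name astrocytes as its only cell type.

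A miRNA is cut from a folded hairpin transcript, and either arm of the hairpin (5p or 3p) can be loaded into an Argonaute protein. The loaded strand pairs with messenger RNAs through its seed, the bases near its 5′ end. MiR-126 is the classical endothelial miRNA and is carried by Egfl7, a gene of the vascular endothelium. MiR-143 and miR-145 are made together and are characteristic of smooth muscle and other mural cells. MiR-199a and miR-214 are made together from the noncoding transcript Dnm3os and are known from mesenchyme, fibroblasts and the developing skeleton.

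The mature sequences of the 5 distinct members found in the RefSeq-derived table (GRCm38.p6) are shown to let a reader see which members share a seed. Each is written 5′ to 3′ with the seed, bases 2 to 8, in capitals.
mmu-miR-126a-3p: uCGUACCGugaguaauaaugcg
mmu-miR-199a-3p and mmu-miR-199b-3p: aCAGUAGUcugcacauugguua
mmu-miR-199a-5p: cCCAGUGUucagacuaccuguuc
mmu-miR-214-3p: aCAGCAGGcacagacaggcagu
mmu-miR-214-5p: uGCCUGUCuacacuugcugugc
The distinct members shown have 5 different seeds, so they do not form 1 seed family. MiR-214-3p shares its seed with miR-761, which has no row in the table. The other distinct seeds occur in no further miRNA among the 1679 mature sequences of that table. The table holds no entry for miR-126a-5p, miR-143-3p, miR-145a-3p or miR-145a-5p. It is therefore incomplete and cannot show that a seed is unique. Of miR-199b only the 3p arm has a row among the deposited values, so its 5p arm was not compared.

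The hairpin of miR-126a is shown because both its arms have a row and because miR-126b is read from the opposite strand of the same bases. The 3p arm, bases 46 to 67 of 73, is in capitals.
Mir126a: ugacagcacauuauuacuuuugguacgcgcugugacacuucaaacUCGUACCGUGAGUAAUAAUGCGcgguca
The whole 58-base Mir126b hairpin is the reverse complement of a stretch of this sequence, and 19 bases in a row of miR-126a-3p are complementary to miR-126b-5p. Reads of the 2 hairpins differ by strand. With no row for miR-126b, all reads listed at this locus were assigned to miR-126a.

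Positions are those of GENCODE M21 on GRCm38, and the authors' own build is not given in the sources used here. Mir126a lies on chromosome 2 (26591357 to 26591429, + strand) within an exon of some annotated transcript of Egfl7, and in an intron of the overlapping gene Gm20532. Whether other Egfl7 transcripts hold it in an intron was not examined. Mir199a-2 (162217814 to 162217923) and Mir214 (162223368 to 162223477) both lie on chromosome 1 within an exon of Dnm3os, with 5444 bases between them, opposite to an intron of Dnm3. Mir199a-1 lies on chromosome 9 (21496495 to 21496564) antisense to an intron of Dnm2, and Mir199b on chromosome 2 (32318460 to 32318569) antisense to one of Dnm1. The mature miR-199a-3p sequence therefore has 3 possible genomic origins and miR-199a-5p has 2, which the table does not separate.

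Mir145a and Mir143 lie on chromosome 18 (61647825 to 61647894 and 61649196 to 61649258, - strand) with 1301 bases between them, inside the span that RefSeq gives to the noncoding RNA gene Carmn. Mir145b lies elsewhere on that chromosome.

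The deposited numbers are normalized values, and in each library they are whole multiples of 1 smallest step. If that step is worth 1 read, the libraries held between 43675 (control 1) and 100933 (heat stress 1) miRNA reads. Where a miRNA is at 0, an expected count of up to 3 reads is still possible, equal to a normalized value between 2.35 and 4.06 depending on the library. The groups were compared with limma after adding 1 and taking log2, using the 313 miRNAs whose mean value reached 1. A miRNA was past the threshold where its change exceeded 2-fold at an unadjusted p under 0.05. On this scale the changes of low miRNAs are compressed. Of the 10 member rows 9 were tested, and miR-126a-5p was not. Nothing in the labels beyond the replicate number says how the libraries of a group were separated. Each p therefore refers to these libraries only. The variance behind it combines the miRNA's own spread with that of all tested miRNAs, so it does not measure the miRNA's own spread alone.

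Together the 9 distinct members made up a similar part of the miRNA reads in each library. Their share was 0.948% in control library 1 and 0.921% in control library 2, against 1.00% in heat stress library 1 and 0.925% in heat stress library 2. The control mean was 0.934% ± 0.0191 (SD, n = 2) and the heat stress mean 0.962% ± 0.0527 (SD, n = 2), a difference smaller than the SD of the heat stress libraries. The total hides parts that offset each other in the controls. MiR-143 and miR-145a took 0.559% in control library 1 and 0.417% in control library 2, while miR-199 and miR-214 took 0.385% and 0.504%. In heat stress libraries 1 and 2 these parts took 0.480% and 0.464%, and 0.479% and 0.448%. MiR-126a took at most 0.0416% in any library, too little to show in the total. In bulk vesicle RNA, fewer vesicles that carry a miRNA and fewer copies per vesicle cannot be told apart.

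**Figure D1:**
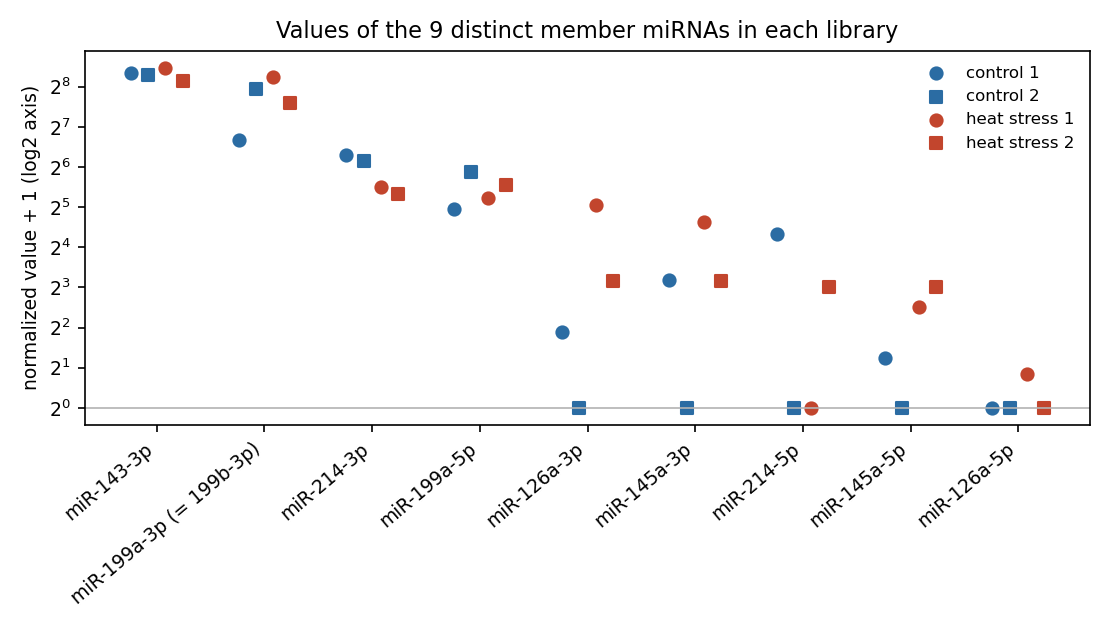
Normalized value plus 1 (log2 axis) of the 9 distinct members in the 2 control (blue) and 2 heat stress (red) libraries, ordered by mean value, with 1 point per library. The 4 members on the left lie above 0 in every library, the 5 on the right reach 0 in at least 1 library, and only for miR-214-3p, miR-126a-3p and miR-145a-5p do the groups not overlap.

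The members fell into 2 sets by abundance. MiR-143-3p, miR-199a-3p, miR-214-3p and miR-199a-5p were above 0 in all 4 libraries, with mean values between 42.5 and 316. The other 5 distinct members were at 0 in at least 1 library, and their mean values lay between 0.198 (miR-126a-5p) and 10.8 (miR-126a-3p). Over all tested miRNAs the median of the mean values was also 10.8. Among the 4 abundant members, replicates were at most 1.27-fold apart for miR-143-3p and 1.13-fold for miR-214-3p. The control replicates of miR-199a-3p were 2.43-fold apart and those of miR-199a-5p 1.94-fold.

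One distinct member, mmu-miR-126a-3p, was past the threshold after heat stress and 0 were past it in the lower direction. For comparison, 4.47% of all tested miRNAs were past it in the higher direction and 2.88% in the lower. At an unadjusted limma p under 0.05 there was 1 member and 23 miRNAs in all, and with Benjamini-Hochberg adjustment over the 313 miRNAs both counts were 0. The median log2 change of the 8 distinct members tested was 0.30, with 4 above 0 and 4 below 0, and that of all tested miRNAs was 0.12, with 52.7% above 0.

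**Figure D2:**
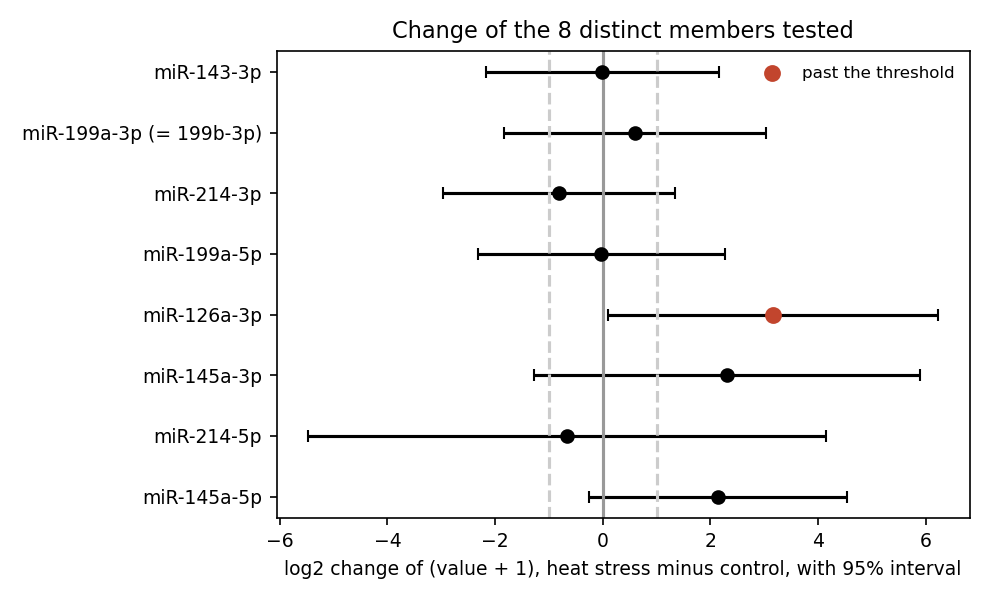
Log2 change of value plus 1, heat stress minus control, for the 8 distinct members tested, with the 95% interval from limma and dashed lines at 2-fold. The interval of miR-126a-3p runs from 0.11 to 6.24, and the intervals of the other 7 include 0.

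MiR-126a-3p, the strand that marks the endothelium, had a normalized value of 2.71 in control library 1, 0 in control library 2, 32.4 in heat stress library 1 and 8.01 in heat stress library 2. Both heat stress libraries were above both control libraries, and heat stress library 1 was far above the other three. In reads these were 2 and 0 in the control group and 41 and 8 in the heat stress group. Its log2 change, computed after adding 1, was 3.17 (standard error 1.19, 95% interval 0.11 to 6.24), with an adjusted p of 0.612 from limma with Benjamini-Hochberg adjustment. The heat stress libraries differed from each other by 4.05-fold.

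As a share of the miRNA reads, miR-126a-3p took 0.00458% in control library 1 (95% exact Clopper-Pearson interval 0.000555 to 0.0165). In control library 2 it took none of the reads (0 to 0.00388). It took 0.0406% in heat stress library 1 (0.0292 to 0.0551) and 0.0126% in heat stress library 2 (0.00545 to 0.0249). The intervals of control library 1 and heat stress library 2 overlap, so at this depth these libraries were not distinguishable. The interval of heat stress library 1 lies above those of the other three. With the reads of each group added up, the share was 20.7 times as large after heat stress, with an exact counting interval from 5.43 to 176. These intervals cover counting error only, and 41 of the 49 heat stress reads came from 1 library. Pooled intervals for miR-145a-3p, miR-145a-5p and miR-214-3p excluded a ratio of 1 as well. That of miR-145a-3p did so (2.24 to 15.5) although its libraries overlap between groups, so pooling does not measure the spread between libraries.

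The call for miR-126a-3p was lost in 6 of the 8 other fits that tested it. The unadjusted limma p was 0.0449 as reported and 0.0934 when 0.1 was added in place of 1, and it was 0.0523 when values were rescaled to equal library totals. Leaving out control library 1, control library 2, heat stress library 1 or heat stress library 2 gave log2 changes of 4.12, 2.23, 2.23 and 4.12, none of them past the threshold (p from 0.120 to 0.287). The direction was the same in each of these fits. Leaving out a library or changing the pseudocount could not reverse it, since both heat stress libraries were above both controls. The miRNA could not be tested where at least 10 reads in every library were required, since only heat stress library 1 reaches that number.

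**Figure D3:**
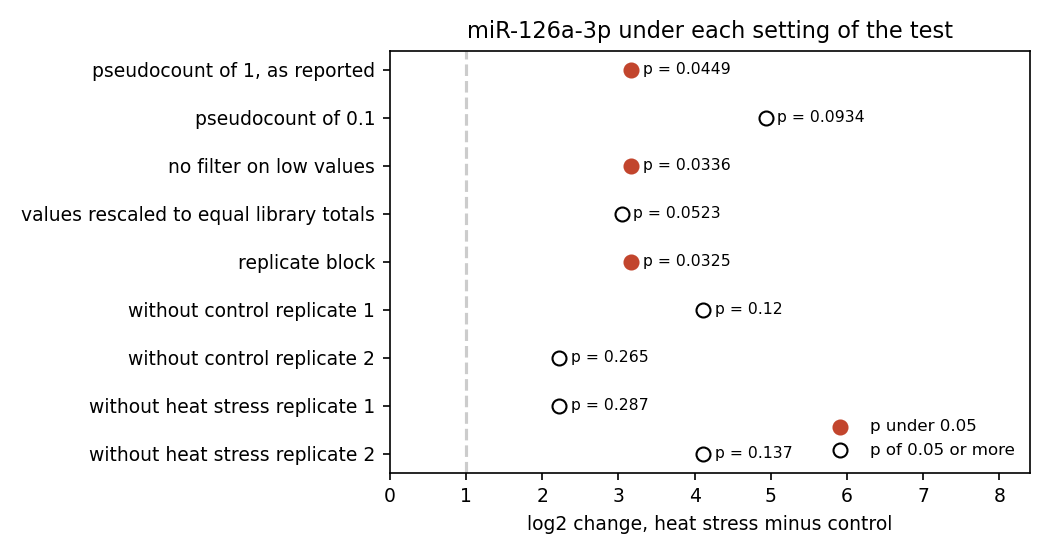
Log2 change of miR-126a-3p, heat stress minus control, in the reported limma fit and 8 others, with its unadjusted p beside each point and a dashed line at 2-fold. Filled points (p under 0.05) are the reported fit, no filter on low values and the replicate block, and all 9 points lie between 2.23 and 4.94.

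The other arm of the hairpin, miR-126a-5p, was represented by 1 read in heat stress library 1, a normalized value of 0.790, and was at 0 in the other three libraries. In heat stress library 1 the 3p arm therefore had 41 reads for 1 read of the 5p arm. In the other libraries the 5p arm was not detected and the depth allows no statement on the ratio of the arms.

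By a distance between patterns over the 4 libraries, the 3 miRNAs nearest to miR-126a-3p among 158 with a mean value of at least 10 were miR-466i-5p, miR-1195 and miR-30c-2-3p, at distances of 1.68, 1.73 and 1.76 on the centred log2(value + 1) scale. All 3 were lowest in control library 2. For miR-143-3p the nearest were miR-615-3p, miR-99a-5p and miR-30d-5p, at 0.264, 0.324 and 0.326. A pattern over 4 libraries is a weak measure of likeness, and these distances are descriptions.

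MiR-143-3p, the smooth muscle miRNA that restrains proliferation in the contractile state, was the most abundant member and the steadiest in rank. Control libraries 1 and 2 had normalized values of 321 and 310, and heat stress libraries 1 and 2 had 354 and 279. The heat stress libraries enclosed the control libraries, so the groups overlapped completely. It ranked 34 in both control libraries, and 32 and 33 in heat stress libraries 1 and 2, among the 389 rows. The control mean was 315 ± 7.96 and the heat stress mean 317 ± 52.9 (SD, n = 2 each). The log2 change was -0.0043 with a 95% interval from -2.16 to 2.15, an interval that reaches from 0.223 to 4.45 times the control level. That width comes in part from the other tested miRNAs. The replicates of miR-143-3p differed by only 0.051 (controls) and 0.34 (heat stress) in log2(value + 1).

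MiR-145a, the partner of miR-143, was far lower and had both arms listed. MiR-145a-3p had values of 8.13 and 0 in control libraries 1 and 2, against 23.7 and 8.01 for heat stress libraries 1 and 2. Control library 1 and heat stress library 2 were nearly equal, so the groups overlapped. Its log2 change was 2.30 (standard error 1.39, adjusted p = 0.686 from limma). That log2 change was 3.90 without control library 1, 0.71 without control library 2 and 3.94 with 0.1 added in place of 1. MiR-145a-5p, the arm known for its role in smooth muscle differentiation, had values of 1.35 and 0 in the control pair and 4.74 and 7.01 in the heat stress pair, which are 1, 0, 6 and 7 reads. Both heat stress libraries were above both controls, and the log2 change was 2.14 (standard error 0.930, adjusted p = 0.686 from limma), which was not past the threshold. Its control mean of 0.677 was below the minimum of 1, so it was tested only because of its heat stress values. Leaving out control library 1 brought it past the threshold (log2 change 2.76, unadjusted limma p 0.0323), but the control group was then 1 library with 0 reads.

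The miRNAs of the miR-143 and miR-145a cluster were not present in equal amounts. MiR-143-3p had 39.5 reads for each read of miR-145a-3p in control library 1, 14.9 in heat stress library 1 and 34.9 in heat stress library 2. In control library 2 it had 396 reads against 0. Within miR-145a, the 3p arm took 85.7% of the reads of both arms in control library 1, 83.3% in heat stress library 1 and 53.3% in heat stress library 2. With only 7 to 36 reads on both arms, these shares had wide intervals (42.1 to 99.6%, 67.2 to 93.6% and 26.6 to 78.7%) that overlap each other.

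MiR-199a-3p, which is shared with miR-199b-3p, is a mesenchymal miRNA abundant in fibroblasts. It reached 102 and 246 in control libraries 1 and 2, while heat stress libraries 1 and 2 had 301 and 192. Control library 1 was low and control library 2 lay between the heat stress libraries. The means were 174 ± 102 (SD, n = 2) and 247 ± 77.0 (SD, n = 2), so the difference was smaller than the spread between replicates. The log2 change was 0.60 (standard error 0.945, adjusted p = 0.908 from limma). Without control library 1 it was -0.035, and without control library 2 it was 1.24.

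MiR-199a-5p, the other arm, had 29.8 and 57.9 in control libraries 1 and 2, while heat stress libraries 1 and 2 had 36.4 and 46.0. Both heat stress libraries lay between the control libraries. The log2 change was -0.023 with a 95% interval from -2.31 to 2.27. The 3p arm was the larger in every library, with 3.41 and 4.26 reads for each read of the 5p arm in the control libraries and 8.28 and 4.17 in the heat stress libraries. The high ratio of heat stress library 1 came from 381 reads of the 3p arm against 46 of the 5p arm, and its interval (85.9 to 92% of both arms) did not overlap those of control library 2 (76.7 to 84.8%) or heat stress library 2 (75.1 to 85.5%). It lay above that of control library 1 (67.7 to 85.2%) too. The ratio of heat stress library 2 lay between those of the controls, so the groups overlapped. Since miR-199b also yields the 3p sequence, this is not the arm ratio of a single hairpin.

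MiR-214-3p, made from the same transcript as miR-199a, was the abundant member whose groups were separate. Control libraries 1 and 2 had 77.2 and 70.4, and heat stress libraries 1 and 2 had 44.3 and 39.0. Both heat stress libraries were below both control libraries, and replicates were close to each other, 1.10-fold apart in the control group and 1.13-fold in the heat stress group. The means were 73.8 ± 4.81 (SD, n = 2) and 41.6 ± 3.69 (SD, n = 2), a ratio of 0.564. Its log2 change of -0.81 (standard error 0.832, 95% interval -2.96 to 1.34, adjusted p = 0.733 from limma) did not reach 2-fold or pass the test. The standard error from limma borrows from all miRNAs, whose median difference between replicates was 0.96 (controls) and 1.07 (heat stress) on the log2(value + 1) scale, against 0.13 and 0.18 for miR-214-3p.

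Of the 8 distinct members tested, 2 had both heat stress libraries above both controls (miR-126a-3p and miR-145a-5p) and 1 had both below (miR-214-3p). MiR-145a-5p reached the minimum mean value only through its heat stress values, so the filter favoured its place in this count. Among all tested miRNAs this held for 16.0% in the higher direction and 11.5% in the lower. For any 1 miRNA in this design, the smallest p of an exact two-sided permutation test is 0.333.

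The 5p arm, miR-214-5p, had 19.0 and 0 in control libraries 1 and 2, while heat stress libraries 1 and 2 had 0 and 7.01. Each group had 1 library at 0, so the log2 change of -0.66 (standard error 1.87) changed sign with the library left out. In control library 2 and heat stress library 1 the 3p arm had 90 and 56 reads with none of the 5p arm. In control library 1 and heat stress library 2 it had 57 and 39 reads against 14 and 7.

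Ratios between members of the same library do not depend on the normalization. The pairs were chosen after their values had been seen and carry no test. MiR-143-3p had 4.16 and 4.40 reads for each read of miR-214-3p in the control libraries, and 8.00 and 7.15 in the heat stress libraries. The groups did not overlap in this ratio, and its closest values between groups were 4.40 and 7.15. For miR-199a-3p and miR-214-3p, 2 miRNAs of the same cluster, the ratio was 1.32 and 3.50 in the control libraries and 6.80 and 4.92 in the heat stress libraries. Here too the groups did not overlap, with the closest values at 3.50 and 4.92. Both ratios divide by miR-214-3p, whose own groups were separate, so they are not independent results. The counting intervals, as a share of both members' reads, overlapped between control library 2 and heat stress library 2 in each ratio. They were 77.7 to 84.8% and 83.6 to 91.1% for miR-143-3p, and 73.4 to 81.7% and 77.7 to 87.7% for miR-199a-3p. The intervals of heat stress library 1 lay above those of both controls in each ratio. For miR-199a-5p and miR-214-3p the ratio was 0.386 and 0.822 in the control libraries and 0.821 and 1.18 in the heat stress libraries, which overlap. The ratio of miR-143-3p to miR-199a-3p was 3.16 in control library 1 and between 1.18 and 1.45 in the other three, so control library 1 stood apart in its low miR-199a-3p.

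**Figure D4:**
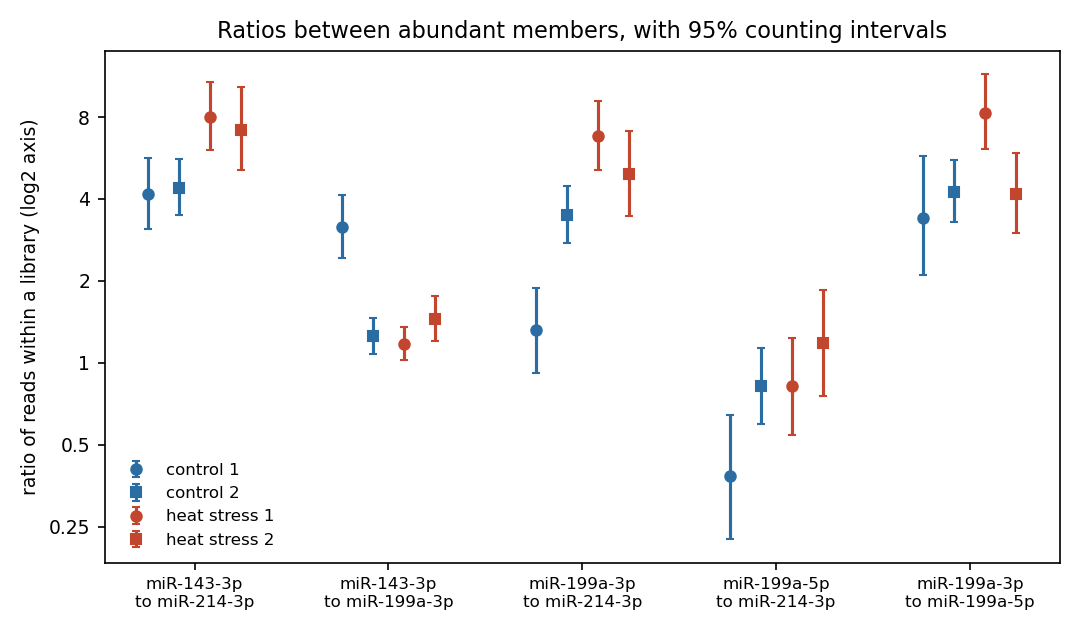
Ratio of reads (log2 axis) between abundant members within each control (blue) and heat stress (red) library, with 95% exact counting intervals. The ratio of miR-143-3p to miR-214-3p is about 4 in the controls (4.16 and 4.40) and 8.00 and 7.15 after heat stress, whereas the ratio of miR-143-3p to miR-199a-3p is highest in control library 1 (3.16).

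Other vascular and mesenchymal miRNAs were described by name lists. Of 13 other endothelial or angiogenic hairpins 12 were listed, with 22 rows of which 20 were tested in limma. None of these was past the threshold, 0 had an unadjusted p under 0.05, and their median log2 change was 0.10. They took between 5.13% and 6.93% of the reads in the control group and between 6.17% and 7.45% in the heat stress group, with the largest values for miR-10a-5p, a Hox-cluster miRNA (2178 ± 21.2 and 2850 ± 284, SD, n = 2 each). Of 12 other fibroblast and mesenchymal hairpins 11 were listed, with 13 rows, all tested, a median log2 change of 0.19 and miR-10b-5p at the largest values. In this list 1 miRNA, miR-31-5p, was past the threshold, with values of 17.6 and 25 in the control pair and of 0 and 5.0 in the heat stress pair (log2 change -3.17, standard error 1.18, adjusted p = 0.612 from limma).

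Lists of miRNAs of other lineages were read beside the members. Blood cell miRNAs had 9 rows, or 7 with the identical rows of miR-486a and miR-486b counted once, and of the 4 distinct ones tested 0 were past the threshold and 0 had an unadjusted limma p under 0.05. Counted in this way they took 1.65% and 0.803% of the reads in the control pair and 1.03% and 0.950% in the heat stress pair, more than the members in each library except control library 2. They were led by miR-486a-5p, an erythroid miRNA, at 933, 553, 777 and 531 in control libraries 1 and 2 and heat stress libraries 1 and 2. Neural miRNAs (7 of 9 hairpins listed) took between 0.740% and 1.32%, led by miR-128-3p at 535 ± 6.21 and 424 ± 58.8 (SD, n = 2 each), and 0 of the 7 tested were past the threshold or had an unadjusted limma p under 0.05. Epithelial miRNAs took at most 0.0205% in any library, with 0 of 2 tested past the threshold or with an unadjusted limma p under 0.05. Of the 6 striated muscle hairpins 2 were listed, each with 1 row. MiR-1a-3p was past the threshold in the lower direction, with values of 24.4 and 73.5 in the control pair and of 3.16 and 0 in the heat stress pair. Its log2 change was -4.41 (standard error 1.17, adjusted p = 0.513 from limma). The other row, miR-206-3p, was not past the threshold (log2 change -0.0047, standard error 0.921). Among all tested miRNAs, 2.88% were past the threshold in the lower direction. The part of other cell types or of serum in the members' values was not tested.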

How the data were processed

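Small RNA of exosome-enriched preparations was sequenced by the authors in 2 control and 2 heat stress libraries. Per the methods, reads were trimmed of adapters, filtered for quality and for a length of at least 17 nt, and mapped with Bowtie, while the submitters' processing notes name BWA and FastQC. The genome build, miRNA release and counter are not given in the sources used here. The deposited values are a normalized signal, 1 per miRNA and library, and all (100%) were whole multiples of a library's smallest value within a tolerance of 0.01. Fold changes and p-values of the authors' own comparison are in the same table and were not used, nor was their table of selected miRNAs.

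The table was fitted whole with limma (version 3.58.1, R version 4.3.3) on log2(value + 1), with condition as the only term, a minimum mean value of 1 and Benjamini-Hochberg adjustment over 313 miRNAs. The code was also run on simulated counts with large set changes. Their spread was not matched to these libraries, so that run checks the code only. The step was taken as 1 read for shares, ratios and limits, library totals include 7 rows that repeat the values of another row (at most 1.81% of a library), and counting intervals are exact binomial at 95%. Count models were not used, as the deposited values are normalized and the reads were only inferred from the step. Positions came from GENCODE M21 and sequences from a RefSeq-derived table. Figures were drawn with matplotlib (version 3.10.9). Members and lists were chosen with earlier results of these data known. Named miRNAs were every member, the 3 nearest in pattern to miR-126a-3p and to the most abundant member, and, of each list, the one with the largest mean and any past the threshold. Alternatives were a pseudocount of 0.1, no filter, at least 10 reads in every library, equal library totals, a replicate block and leaving out each library.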

Additional observations from a re-analysis of the deposited data

How the results depend on the processing

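The 1 member past the threshold in the higher direction became 0 with a pseudocount of 0.1, when each library had to have at least 10 reads (104 miRNAs and 5 member rows tested) and with equal library totals, and it ranged from 0 to 1 with a library left out. Without control library 1 the 1 member was miR-145a-5p. With the replicate block it was still 1, and 4 miRNAs of the whole table were lower in place of 9. Deviations from the group means correlated at -0.019 (Pearson, across 313 miRNAs) between libraries with the same number. With many low miRNAs among them, this value cannot show whether libraries with the same number were handled together. The labels do not say. Over all miRNAs, 14 higher and 9 lower became 2 higher and 5 lower under that minimum of reads, 2 were lower with a pseudocount of 0.1, and leaving out a library gave from 10 to 39 higher and from 3 to 27 lower. The filter accounts for the miRNAs it removed, and what caused the remaining shifts was not tested. Leaving out heat stress library 1 or 2 gave 35 miRNAs with an adjusted p under 0.05 from limma in each case, of which 35 and 34 had no spread within either group, so these calls rest on an assumed variance. Equal library totals moved the median log2 change over the tested miRNAs from 0.12 to 0.022.

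Of the members' log2 changes, none changed sign in the fits that used all 4 libraries. With a library left out, miR-143-3p ranged from -0.17 to 0.17 (0.021 without control library 1 and 0.17 without heat stress library 2), and miR-199a-3p and miR-199b-3p from -0.035 (without control library 1) to 1.24. MiR-199a-5p ranged from -0.49 to 0.44 (0.44 without control library 2 and 0.14 without heat stress library 1), and miR-214-5p from -2.82 to 1.5 (1.5 without control library 1 and 0.84 without heat stress library 1). In these fits the group with 1 library is assumed to vary like the other. Depth limits the low members most: 5 of the 9 distinct members were at 0 in at least 1 library.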
